A study of Mus musculus with 3 samples.

Results

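The 5hmC share of promoter methylation was computed for each autosomal protein-coding gene of the GENCODE M1 annotation (mm9), from 1 CAPS library and 1 TAPSβ library of the same cells. Modified and unmodified reads of all CpG cytosines from 2 kb before to 2 kb after the gene start were pooled. Of 21418 annotated gene entries, 20519 had at least 200 reads in each library and were kept, and 899 had fewer. Both libraries were made from gDNA of E14 mESCs, an established line of mouse embryonic stem cells, grown with serum, LIF, PD0325901 and CHIR99021, with no genotype, treatment or time that differed between them. In TAPSβ, 5hmC is blocked with glucose before Tet oxidation and borane reduction, so 5mC is read as T, whereas in CAPS 5hmC is first oxidized chemically and then reduced, so 5hmC is read as T. A further library of the same gDNA, PS, leaves out the oxidation and reads 5fC and 5caC. These 2 forms are also read as T in TAPSβ and CAPS. Each method had 1 library, so there were no replicates, no p-value is given, and intervals of levels are exact binomial 95% intervals, which the interval of a share combines over both libraries. They cover counting error only, as if no read spanned several CpGs.

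In mammalian DNA, Dnmt enzymes place 5mC at CpG dinucleotides, and Tet enzymes oxidize 5mC to 5hmC and further to 5fC and 5caC. Promoters rich in CpG are usually free of methylation, those poor in CpG are usually methylated, and 5hmC is found mostly where methylation is intermediate. A promoter can therefore carry the same amount of modified cytosine with different proportions of the oxidized form, which is the question this comparison addresses.

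For each promoter the CAPS level less 0.0072 and the TAPSβ level less 0.0024 were added to give the total level, and the share is the CAPS part of that total. The subtracted values are the background rates on unmodified cytosine. Over the autosomes the TAPSβ level was 57.4% and the CAPS level 3.15% of reads. The median promoter had 1571 CAPS reads (quartiles 851 and 2254) and 2650 TAPSβ reads (quartiles 1154 and 4051.5). In 5816 promoters the total level was under 10%, with a median CAPS level of 1.37% beside the subtracted 0.72%, and no share was used there. The 14703 other promoters are described here.

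Stretches of 200 bases upstream of the start of 6 of these genes show the kind of sequence behind the values. They were chosen after the values had been seen, as the exon-free stretch of each promoter with the most modified reads in both libraries, and each is printed 5′ to 3′ on the strand of its gene with CpG in capitals. The first 3 belong to promoters with a high share, Lpin1 (chr12:16597497-16597696, minus strand), Hand1 (chr11:57646961-57647160, minus strand) and P2rx1 (chr11:72811425-72811624, plus strand). The last 3 belong to promoters with a low share, Mrpl9 (chr3:94245500-94245699, plus strand), Peg3 (chr7:6683673-6683872, minus strand) and Nap1l5 (chr6:58858521-58858720, minus strand), all on mm9.
Lpin1: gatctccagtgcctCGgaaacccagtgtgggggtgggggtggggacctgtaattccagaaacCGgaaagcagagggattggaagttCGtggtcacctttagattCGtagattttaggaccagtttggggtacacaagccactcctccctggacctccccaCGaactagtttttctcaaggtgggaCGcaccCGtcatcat
Hand1: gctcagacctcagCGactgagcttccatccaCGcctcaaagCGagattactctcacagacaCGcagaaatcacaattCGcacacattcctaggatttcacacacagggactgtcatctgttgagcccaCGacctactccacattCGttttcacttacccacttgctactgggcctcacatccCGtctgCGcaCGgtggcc
P2rx1: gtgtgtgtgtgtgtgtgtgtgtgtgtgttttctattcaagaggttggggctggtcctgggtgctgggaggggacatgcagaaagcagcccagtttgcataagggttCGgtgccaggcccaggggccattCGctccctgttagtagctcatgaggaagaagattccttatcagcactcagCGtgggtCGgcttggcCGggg
Mrpl9: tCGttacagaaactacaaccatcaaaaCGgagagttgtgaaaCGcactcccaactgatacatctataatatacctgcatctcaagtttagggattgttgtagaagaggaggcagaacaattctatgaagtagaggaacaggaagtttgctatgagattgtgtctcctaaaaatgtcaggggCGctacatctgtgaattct
Peg3: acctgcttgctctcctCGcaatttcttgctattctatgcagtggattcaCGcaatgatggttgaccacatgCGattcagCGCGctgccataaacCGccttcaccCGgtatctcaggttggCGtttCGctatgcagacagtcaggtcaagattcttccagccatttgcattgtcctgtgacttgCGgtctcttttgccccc
Nap1l5: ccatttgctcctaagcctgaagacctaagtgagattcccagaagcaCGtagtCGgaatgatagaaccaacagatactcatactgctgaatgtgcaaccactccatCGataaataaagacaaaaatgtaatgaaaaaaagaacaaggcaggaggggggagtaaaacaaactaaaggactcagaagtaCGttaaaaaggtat
The 7 CpGs of the Lpin1 stretch were modified in 19 of 115 CAPS reads (16.5%, 10.3 to 24.6%) and in 55 of 130 TAPSβ reads (42.3%). The 10 CpGs of the Peg3 stretch were modified in 4 of 242 CAPS reads (1.65%, 0.452 to 4.18%) and in 85 of 262 TAPSβ reads (32.4%). Since the genes were chosen for their shares, this contrast only illustrates the calls. The Hand1 stretch, also with 10 CpGs, had 12 of 156 CAPS reads modified (7.69%) beside 44.6% in TAPSβ, and the P2rx1 stretch 12 of 62 (19.4%) beside 55.8%. The stretches of Mrpl9 and Nap1l5 each hold 4 CpGs, were modified in 85.7% and 85.6% of TAPSβ reads, and had 1 of 74 and 2 of 66 CAPS reads modified. In PS, 1 modified read was seen in the Nap1l5 stretch and 0 in the other 5.

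Promoters with a total level of 10 to 50% had higher 5hmC shares than the more methylated ones. Across the 14703 promoters the median share was 6.64% (95% interval of the median over genes 6.53 to 6.75%), with quartiles of 3.13% and 10.6% and extremes of -1.98% and 39.9%. The median was 9.90% at a total level of 10 to 20%, 9.46% at 20 to 30%, 9.61% at 30 to 40% and 8.85% at 40 to 50%. It then fell to 6.12% at 50 to 60%, 3.19% at 60 to 70%, 2.45% at 70 to 80% and 1.93% above 80%. The median CAPS level itself was highest, 4.68%, at a total level of 40 to 50%. Across genes, which are not independent replicates and whose total contains the CAPS level, Spearman's rho of share and total was -0.65 (n = 14703). Within one total level the spread was wide, and from 10 to 20% the share ran from 3.67% to 19.8% once the lowest and highest 5% of genes were left out. This spread includes counting error, and how much of it is counting error was not tested.

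**Figure D1:**
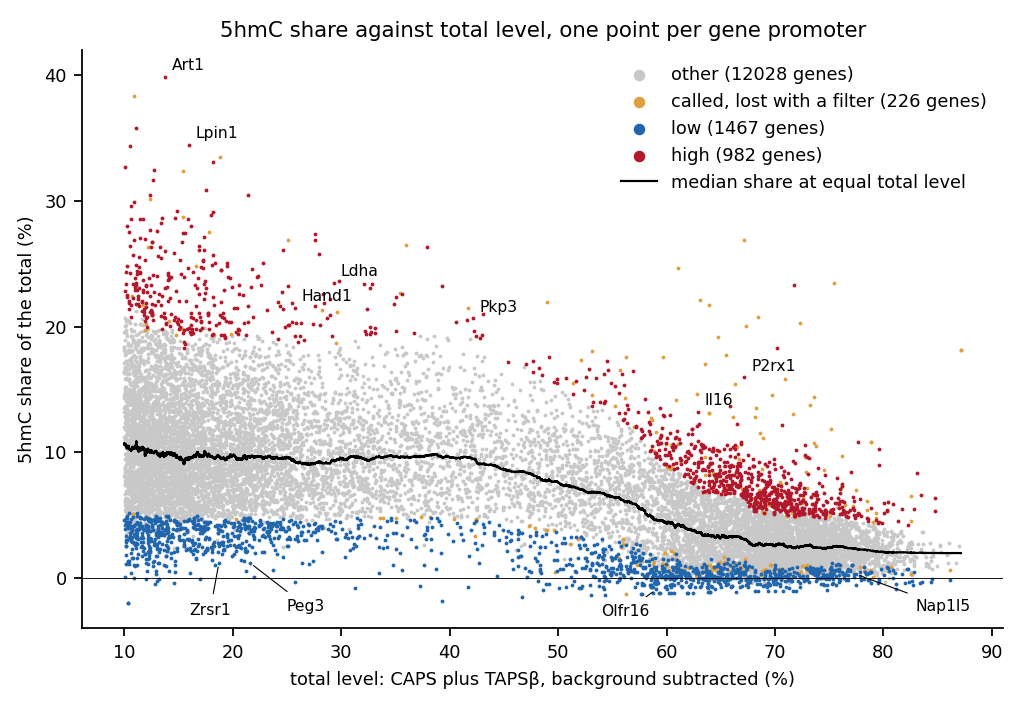
5hmC share (%, y axis) against total level (%, x axis) of the 14703 promoters, with high promoters in red, low promoters in blue, other promoters in grey, calls lost with a filter in orange and the median share at equal total level as a black line. The medians fall from 9.90% at totals of 10 to 20% to 1.93% above 80%, while single promoters reach from below 0 to 39.9% (Art1).

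Promoters were then set against others of equal total level. The reference of a gene is the median share of the 250 genes next below it and the 250 next above it in total, and the ratio is its share over this reference. A promoter was called high where the ratio was at least 2 and the interval of its share lay above the reference, and low where the ratio was at most 0.5 and the interval lay below it. High were 1113 promoters (7.57% of those with a usable total) and low were 1562 (10.6%). The frequency of calls depended on the total level. At totals of 10 to 20%, 244 of 4721 promoters were high and 421 low. At 20 to 30%, 60 of 1865 were high and 181 low, and at 60 to 70%, 395 of 2794 were high and 336 low. Percentages of all promoters set beside gene groups below are not matched for total level. A call was kept where it also held without cytosines of a PS level of 20% or more and without cytosines of over 4 times the median depth, which left 982 high and 1467 low promoters. With a minimum of 500 reads per library, 582 of the high and 1001 of the low calls (52.3% and 64.1%) were made again, among 12275 usable promoters. Of the calls, 446 high and 442 low ones (40.1% and 28.3%) were also made with windows of 1 kb on either side, where 8472 promoters had a usable total, and 539 and 960 (48.4% and 61.5%) with no background subtracted. Shares over 20% were found in 298 promoters, of which 258 were kept as high. Shares below 0, where fewer CAPS reads were modified than the background rate gives, were found in 266 promoters, of which 258 were called low.

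The plus and minus strands of a promoter hold different cytosines, read from different strands of the same library, so values on one strand can be read where calls were made on the other. The 928 promoters called high on the plus strand had a median ratio of 1.70 on the minus strand, with 88.6% above 1 and 35.2% at 2 or more. Among all 12740 promoters with a minus-strand value, 7.40% were at 2 or more. The 890 promoters called low on the plus strand had a median minus-strand ratio of 0.54, with 86.9% below 1 and 44.8% at 0.5 or less, beside 16.7% of all promoters. Both classes thus kept their side on the other strand in most genes, with a smaller departure from 1 than on the strand of the call, where the median ratios were 2.33 and 0.213. In the reverse reading the medians were 1.74 for 876 high and 0.56 for 933 low promoters. The strands belong to 1 library and are not replicates.

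**Figure D2:**
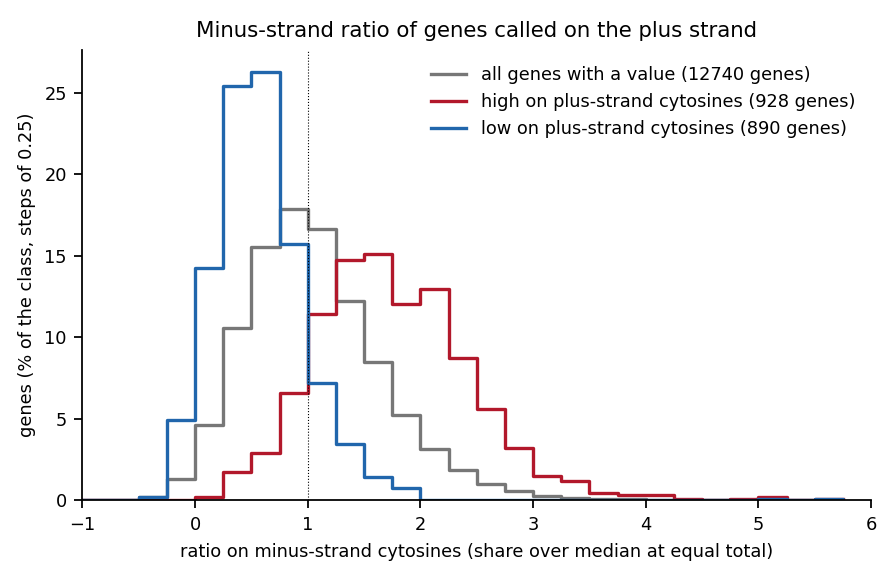
Distribution of the minus-strand ratio (x axis) as the percentage of genes in each class (y axis, steps of 0.25), for promoters called high (red) or low (blue) on plus-strand cytosines and for all promoters with a minus-strand value (grey). The red curve is shifted above 1 with a median of 1.70 and the blue curve below 1 with a median of 0.54, and both overlap the grey curve.

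High and low promoters of equal total level differed in where the methylation lay. At total levels of 10 to 20%, all classes had TAPSβ levels under 2% within 200 bp of the start. From 1.2 to 1 kb upstream, the 226 high promoters had a TAPSβ level of 27.4% and a CAPS level of 7.52%. The same step had 51.9% and 2.11% in the 419 low promoters, and 42.1% and 4.09% in the 4056 others. The low class thus had the higher TAPSβ level in the flanks. At equal total the order of the CAPS levels, and in part that of the TAPSβ levels, follows from how the classes were defined, and over the whole windows TAPSβ was 11.1% in the high and 13.6% in the low class. At the far ends, 2 to 1.8 kb upstream, the high class had 33.7% in TAPSβ and the low class 60.4%. The median percentage of cytosines with a TAPSβ level of 20 to 80% differed little at these totals. It was 20.1% in high, 19.3% in other and 18.4% in low promoters. At totals of 20 to 40% the same medians were 37.0%, 34.3% and 31.1%. They were 70.9%, 62.6% and 73.3% at 40 to 60%, and 68.4%, 64.4% and 65.0% at 60% or more. At total levels of 60% or more the high class of 595 promoters had its largest CAPS level, 7.25%, in the 200 bp before the start, where its TAPSβ level dropped to 55.9%. The 494 low promoters had 1.10% in CAPS and 68.5% in TAPSβ at that step, with no such dip. The 4087 others had a smaller peak and dip at the same step, with 3.68% in CAPS and 63.0% in TAPSβ.

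**Figure D3:**
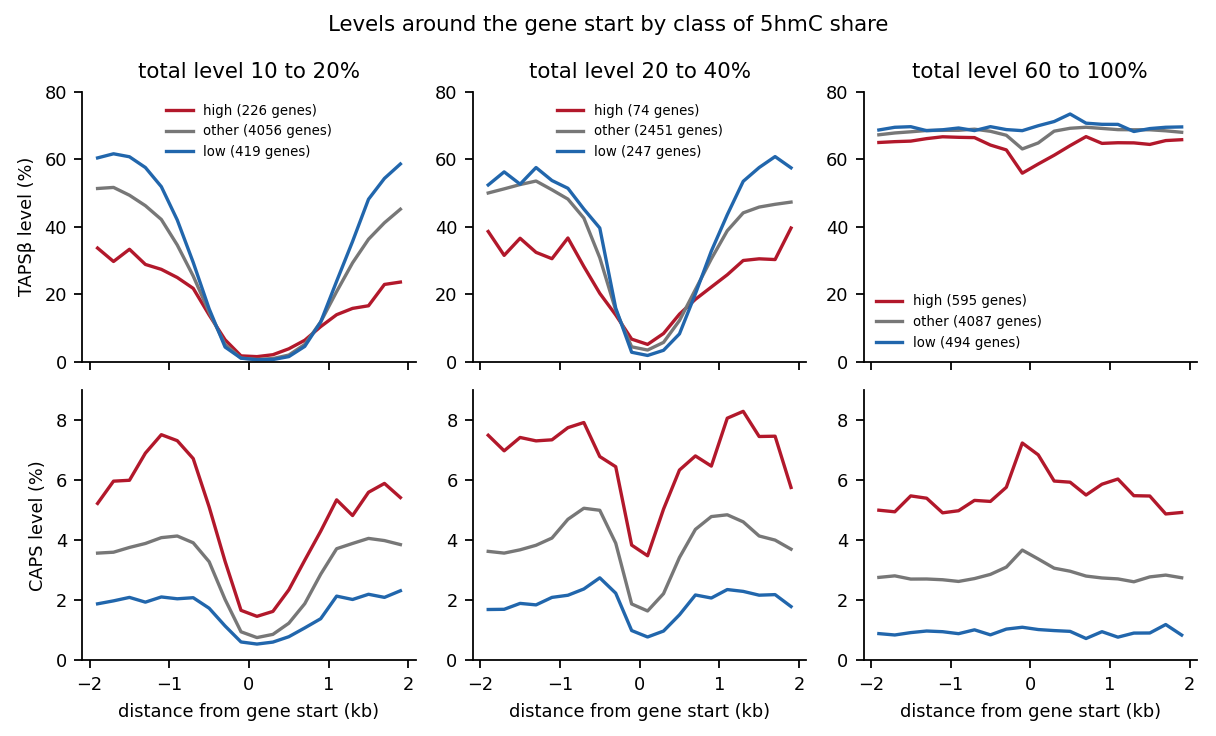
TAPSβ level (%, upper panels) and CAPS level (%, lower panels) in 200-bp steps against the distance from the gene start (kb), pooled over high (red), other (grey) and low (blue) promoters at total levels of 10 to 20%, 20 to 40% and 60 to 100%. In the left panels the high class has the lower TAPSβ level in the flanks (27.4% against 51.9% at 1.2 to 1 kb upstream) and the higher CAPS level (7.52% against 2.11%), and in the right panels its CAPS level peaks at 7.25% just before the start.

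The CpG number of the classes depended on the total level. At total levels of 60% or more, the median window held 44 CpGs in the high class, 32 in the others and 23 in the low class. From 40 to 60% the medians were 53, 53 and 19. From 20 to 40% they were 67.5, 83 and 79, with the fewest CpGs in the high class, and from 10 to 20% they were 104, 110 and 98. Low promoters of high total level were therefore mostly CpG-poor, with fewer reads behind them, a median of 461 in CAPS against 831 in the high class. With a reference from promoters of like total level and like CpG number 1002 promoters were high and 1170 low, of which 658 and 948 were among the calls above. At total levels of 10 to 20%, a gene start on the opposite strand within 1 kb was found in 6.64% of high, 13.2% of other and 18.1% of low promoters. This order did not hold at 20 to 40%, with 1.35%, 7.75% and 6.88%, and it was turned round at 40 to 60%, with 3.45%, 2.58% and 1.63%. At 60% or more it was the same again on a low level, with 0.336%, 0.807% and 1.01%. The classes here are the calls that held with the PS filter, so their PS levels are limited by it. The pooled PS level was 0.309%, 0.209% and 0.184% in high, other and low promoters of 60% or more, against an autosomal level of 0.24%. The median PS levels of the same promoters were 0.153%, 0.137% and 0.162%, in another order. From 10 to 20% both ran from high to low, with pooled levels of 0.304%, 0.2502% and 0.240% and medians of 0.242%, 0.239% and 0.228%. From 20 to 40% the pooled levels were 0.248%, 0.236% and 0.239%, and the medians 0.231%, 0.216% and 0.212%. From 40 to 60% the pooled levels were 0.240%, 0.247% and 0.215%, and the medians 0.201%, 0.169% and 0.127%. No background was subtracted from PS levels. The study's PS rate on unmodified cytosine lies above the autosomal level and all these medians. Of the pooled levels, only those of high promoters at 10 to 20% and at 60% or more exceed it. Its rate on methylated lambda DNA was lower than all these levels, and that on its synthetic methylated spike-in higher. Whether they differ from background was not tested, and no class difference is read from their order.

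Among the 15 high promoters furthest above their reference by the bound of the interval, most were highly methylated. The median share was 9.90% at totals of 10 to 20% and 2.45% at 70 to 80%. The same share therefore gives a larger ratio at high total, which bears on this ranking. P2rx1, an ATP-gated ion channel, had 83 of 725 CAPS reads modified (11.4%) and 669 of 1180 TAPSβ reads (56.7%), which gave a share of 15.97% (12.5 to 19.9%), 5.16 times its reference. Il16, a cytokine, had 84 of 929 CAPS reads and 806 of 1470 TAPSβ reads modified and a share of 13.2% (10.3 to 16.6%). Birc7, an inhibitor of apoptosis, had a share of 12.3%, and Palld, an actin-associated protein, 10.2%. The other members of this kind, Higd1b, Btnl7, Gm17511, Gm17590 and 4933408B17Rik, had shares of 9.17 to 13.7% at totals of 65.9 to 73.1%.

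At low total level the shares were larger. Art1, an ADP-ribosyltransferase, had the largest share of all usable promoters, 39.9% (30.7 to 49.4%), from 77 of 1242 CAPS reads and 189 of 2222 TAPSβ reads. The Art1 window overlaps that of another kept gene, and to which promoter the signal belongs was not tested. Lpin1, a phosphatidate phosphatase of lipid synthesis, had 34.5% (26.2 to 43.2%) from 73 of 1176 and 253 of 2369 reads. The ratios were 4.03 and 3.61. In 4 of the 15 genes the PS level also stood well above the autosomal 0.24%. Mrgpra4, a receptor of sensory neurons, had a PS level of 13.6% beside its share of 23.3%. The share was 16.8% without cytosines of high PS level. In this window 20 of the 47 cytosines were over 4 times the median depth in CAPS or TAPSβ. Abcg2, a transporter, had 7.42% in PS and its share moved from 18.3% to 9.96%. Its ratio was 1.52 with plus-strand cytosines alone and 10.9 with minus-strand ones. Gm10351 had 5.27% in PS and moved from 9.02% to 5.16%. Vmn2r11 had 1.88% in PS and moved from 10.9% to 9.25%. The genes were named from calls that hold without these cytosines, and the part of the remaining PS signal was not tested.

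The 15 low promoters furthest below their reference were nearly all highly methylated with almost no CAPS signal. Krtap12-1, a hair keratin-associated protein, had 1 of 648 CAPS reads modified and 505 of 700 TAPSβ reads, a share of -0.793% (-0.961 to 0.1995%) against a reference of 2.53%. Olfr16, an olfactory receptor, had 1 of 541 and 444 of 742 reads modified, a share of -0.906% against a reference of 4.63%. Catsper3, a subunit of a sperm calcium channel, had 5 of 973 and 848 of 1059, a share of -0.259%. The upper bounds were 0.1995%, 0.543% and 0.611%. The low group also held Msr1, a scavenger receptor of macrophages, Rgs1, a regulator of G-protein signalling, Ms4a4b, Prl7c1 of the prolactin family, Slc39a12, a zinc transporter, the olfactory receptors Olfr149 and Olfr33, and Hmg1l1, Gm609, Gm10991, Gm13941 and Gm14446, with 1 to 6 modified CAPS reads each. Their total levels were 52.9 to 84.4%. A share below 0 cannot be a proportion and says only that the CAPS level was under the background rate on unmodified cytosine. The study's rate on 5mC of methylated lambda DNA was lower, 0.0038. The CAPS levels of 5 of the 15 genes lie above it, Slc39a12 (0.575%), Catsper3 (0.514%), Gm10991 (0.452%), Gm13941 (0.434%) and Olfr149 (0.433%). The study's synthetic 5mC spike-in had a higher rate, and all 15 CAPS levels lie below that one.

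Genes of similar total level can be set side by side. At totals of 15.9% and 16.2%, Lpin1 had a share of 34.5% and Mrpl9, a protein of the mitochondrial ribosome, 2.18% (-0.427 to 6.14%). Hand1, a transcription factor of trophoblast and heart, had 115 of 1842 CAPS reads modified (6.24%) and 702 of 3438 TAPSβ reads (20.4%), a total of 25.7% and a share of 21.5% (17.1 to 26.3%). Peg3, an imprinted zinc finger gene, had 25 of 2548 CAPS reads (0.981%) and 752 of 3486 TAPSβ reads (21.6%), a total of 21.6% and a share of 1.21% (-0.371 to 3.50%). Their totals differ more than those of the other pairs, and their shares lie on opposite sides of the reference. Tuba3a and Olfr33, at totals of 63.1% and 63.8%, had shares of 10.2% and -0.748%. Dpep3 and Krtap12-1, at 72.7% and 71.3%, had 6.75% and -0.793%. The genes of each pair were chosen for their calls in opposite directions, so the contrast is a description.

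**Figure D4:**
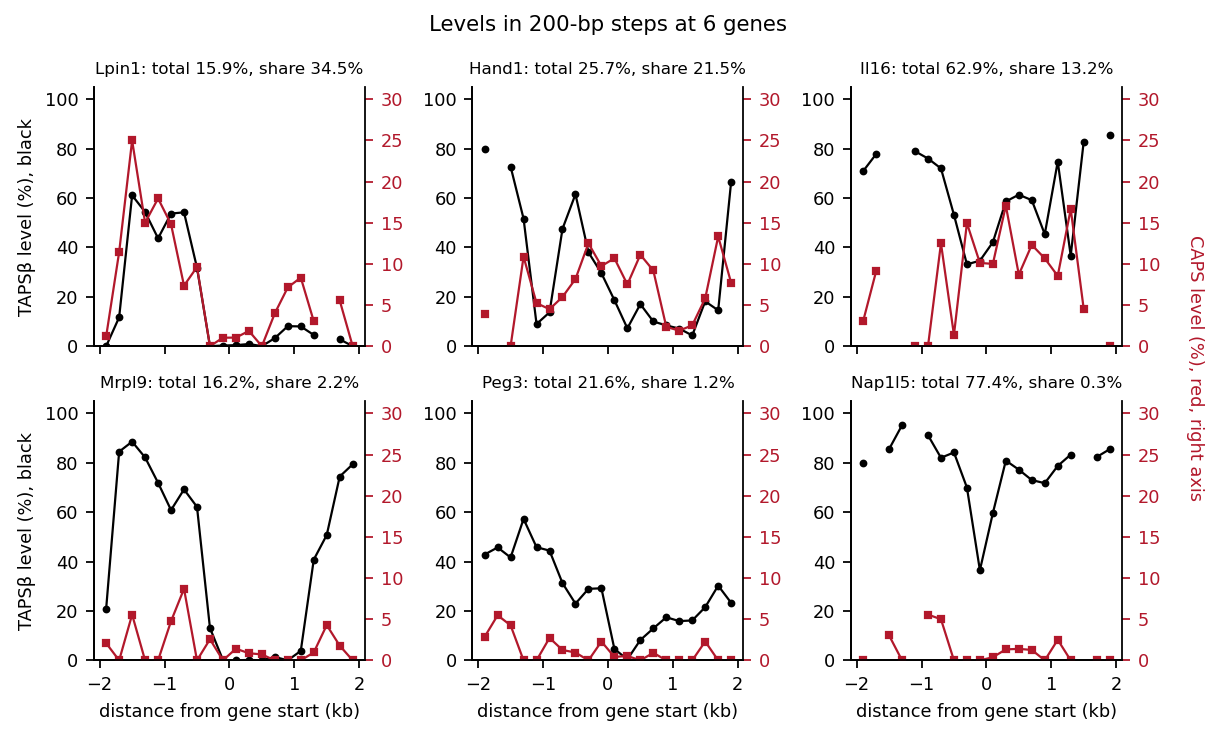
TAPSβ level (%, black, left axis) and CAPS level (%, red, right axis, expanded) in 200-bp steps around the start of 3 genes of high share (upper panels, Lpin1, Hand1 and Il16) and 3 of low share (lower panels, Mrpl9, Peg3 and Nap1l5), with gaps where a step holds no CpG read. Lpin1 reaches 25% in CAPS 1.6 to 1.4 kb upstream, where TAPSβ is 61.1%, while Mrpl9 has 5.56% in CAPS beside 88.6% at the same distance, and single steps rest on few reads (28 and 18 in CAPS).

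Within the promoters, the CAPS signal did not simply follow TAPSβ. In Lpin1 both signals were largest in the upstream flank, and in the step from 1.2 to 1 kb upstream CAPS was 17.9% beside 43.7% in TAPSβ. From the start to 200 bp downstream CAPS and TAPSβ were 1.04% and 0.412%, and from 800 to 1000 bp downstream 7.14% and 8.11%. In Hand1 CAPS was 9.73% in the 200 bp before the start and 10.7% in the 200 bp after it, where TAPSβ was 29.6% and 18.7%. Peg3 had 2.29% and 0.415% in CAPS at the same steps, beside 29.2% and 4.63% in TAPSβ. In Il16 CAPS was 15.0% from 400 to 200 bp upstream, where TAPSβ was at its lowest, 33.2%, and 17.1% from 200 to 400 bp downstream, where TAPSβ was 58.6%. In Nap1l5 TAPSβ also dipped, to 36.5% in the 200 bp before the start, but 0 of 88 CAPS reads were modified there, which allows a level of up to 3.41%.

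Genes were then grouped in 21 lists, and each list is given by the median ratio of its members with a total of 10% or more, beside 1.00 for all genes. Among promoters of developmental regulators with a usable total, most lay above the median share at equal total. The percentage called high was 4.35 to 12.5% in these lists, beside 7.57% of all promoters. The median totals of these lists were 19.5 to 20.5%, beside 38.0% for all promoters. At totals of 10 to 20%, 244 of 4721 promoters were high, and at 20 to 30%, 60 of 1865. Of 40 Hox gene entries, which set positional identity along the body axis, 22 had a usable total, with a median ratio of 1.64, and 19 lay above their reference. Hoxb5 (21.9%, 16.4 to 28.0%) and Hoxc6 (21.4%, 14.7 to 29.2%) were high (9.09% of the 22) and none was low. Of 58 lineage regulators silent in embryonic stem cells, 32 were usable, with a median of 1.37 and 27 above the reference, where 50.1% of all genes lie above it. High were 12.5% of the 32, among them Hand1, Hnf4a and Myf5, and none was low, beside 10.6% of all promoters. Myf5, a muscle regulator, had 9.46% (7.31 to 11.98%) at a total of 64.9%, 2.95 times its reference. Among the rest, Sox17 of endoderm had 16.01% and brachyury (T) of mesoderm 16.6%, and neither passed the call. Of 39 Wnt and FGF ligands 23 were usable, with a median of 1.23, 18 above the reference, and Fgf17 as the 1 high member (20.9%, 14.1 to 28.9%). Neighbouring genes of a cluster share methylation and are not independent, and Hoxa3 and Runx2 are listed in a pair of entries each with the same window. With windows of 1 kb on either side of the start the medians of Hox and lineage genes were 1.03 and 1.12.

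**Figure D5:**
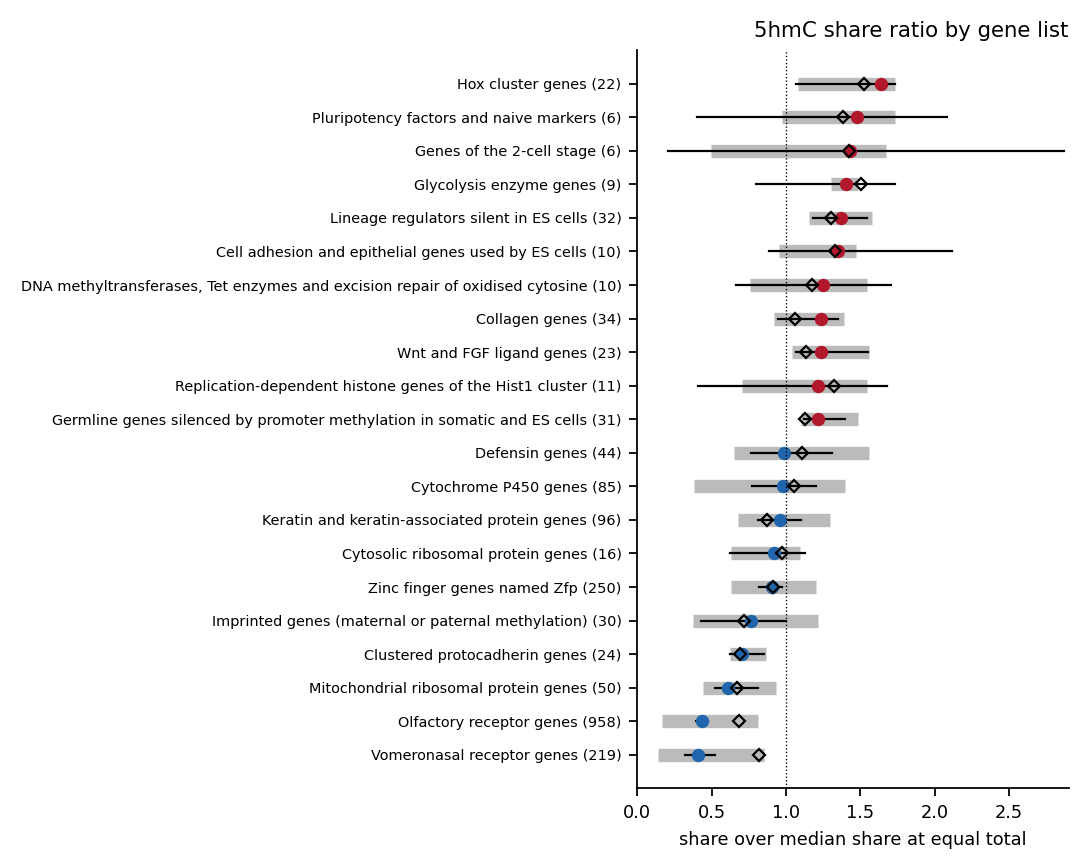
Ratio of the 5hmC share to the median share at equal total level (x axis) for 21 gene lists (y axis, with the number of usable members), with the median as a dot (red above 1, blue below), its 95% interval over genes as a line, the quartiles as a grey bar and the median against promoters of like total level and like CpG number as an open diamond. Hox genes have the largest median (1.64) and vomeronasal receptors the smallest (0.406), and the diamonds of olfactory and vomeronasal receptors move to 0.681 and 0.819.

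Germline genes, which embryonic stem cells and somatic cells keep silent by promoter methylation, all had a usable total (31 of 31). Their median ratio was 1.22, and 24 lay above the reference. Tuba3a, a testis tubulin, had 10.2% (7.99 to 12.7%) at a total of 63.1%. Hormad1, a protein of the meiotic chromosome axis, had 12.3% (9.58 to 15.5%) at 56.3%, and Dpep3, a testis dipeptidase, 6.75% (5.10 to 8.69%) at 72.7%. These 3 (9.68%, beside 7.57% of all promoters) were high, and the low call of Rnf17 was lost when cytosines of high PS level or depth were left out. Others such as Dazl, Stra8 and Sycp1 had ratios of 1.20, 1.22 and 1.15, within the range of most promoters. Against promoters of like CpG number the median of the list was 1.13, and with windows of 1 kb on either side it was 1.06.

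Imprinted genes, of which one parental copy is silenced, lay mostly below the reference. Of 41 genes 30 were usable, with a median ratio of 0.762 and 10 above the reference, and 9 (30%, beside 10.6% of all genes) were low. The 3 furthest below were Peg3, Zrsr1 and Nap1l5. Zrsr1 had 27 of 2848 CAPS reads modified and 575 of 3068 TAPSβ reads, a share of 1.22% (-0.476 to 3.69%) at a total of 18.7%. Nap1l5 had 16 of 1657 and 892 of 1152, a share of 0.317% (-0.210 to 1.12%) at 77.4%. Plagl1 (0.479%), Nnat (0.676%), Impact (2.99%), Mcts2 (3.46%), Peg10 (4.10%) and Sgce (4.21%) were low as well, and the windows of Peg10 and Sgce overlap nearly in full. All 9 had a ratio of 0.431 or less. High were Usp29 (5.63%, 3.69 to 8.07%) and Ins2 (7.73%, 4.58 to 11.9%), at totals of 71.7% and 68.96% (6.67% of the list, beside 7.57% of all promoters). Usp29 lies on chromosome 7 as Peg3 does, with their annotated starts at 6913871 and 6683132 on mm9, and their calls go in opposite directions. Whether the window at the annotated start of Usp29 is itself imprinted was not tested. Against promoters of like CpG number the median of the list was 0.715.

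Genes of the pluripotent state had little methylation at most of their promoters, and RNA was not measured. Of 28 pluripotency genes 22 had a total under 10%, and the 6 others had a median ratio of 1.48. Esrrb, a nuclear receptor of naive cells, had 7.88% (5.72 to 10.5%) at a total of 62.6% and was high, but the ratio was 2.59 with plus-strand cytosines alone and 0.962 with minus-strand ones. Dppa3, a maternal factor that guards methylation in the early embryo, had 16.6% (12.5 to 21.4%) at 29.9%. The remaining values were 17.3% for Gdf3, a growth factor, 12.6% for Dppa4, 8.42% for the receptor Nr5a2 and 4.10% for the signal transducer Stat3. These 5 genes did not pass the call, and the intervals of Gdf3, Dppa4, Nr5a2 and Stat3 reach from -0.0245% for Stat3 to 27.2% for Gdf3.

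Enzymes that write, oxidize and remove 5mC, with readers of methylated DNA, formed a list of 25 genes, of which 10 were usable, with a median ratio of 1.25. Tet1 and Tet3, which make 5hmC, had shares of 16.4% (9.22 to 25.8%) and 16.8% (11.5 to 23.0%) at totals of 15.2% and 18.2%, and ratios of 1.70 and 1.74 that miss the fold of 2. Dnmt3l, the partner of the de novo methyltransferases, had 10.1% at a total of 34.7%. Among glycosylases of base excision repair, Neil3 was low with 4.27% (1.45 to 8.41%) at 26.9%, whereas Neil2 had 14.7%, Neil1 11.3% and Smug1 9.76%. Mbd4, a further glycosylase, had 6.06% (2.00 to 12.4%). Mbd1 and Mbd3, of the methyl-CpG-binding domain family, had 6.38% (2.83 to 11.5%) and 15.1% (5.28 to 29.2%). The windows of Mbd4, Mbd1 and Mbd3 hold 93, 106 and 178 CpGs, each with a cytosine on either strand. Only 51, 90 and 70 cytosines had reads, so these shares cover a part of each window. No member was high and 1 of 10 was low, beside 7.57% and 10.6% of all promoters.

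Housekeeping genes did not behave alike. Of 77 genes for proteins of the mitochondrial ribosome 50 were usable, with a median ratio of 0.609, and 16 (32.0%, beside 10.6% of all promoters) were low. Mrpl11 had 19 of 1609 CAPS reads modified and 545 of 2583 TAPSβ reads, a share of 2.16% (-0.0338 to 5.48%) at a total of 21.3%, and Mrpl22 had 2.92% (0.590 to 6.30%) at 21.2%. Only Mrps24 was high in this list (2.00%, beside 7.57% of all promoters), with 103 of 1549 CAPS reads and a share of 20.7% (16.3 to 25.6%). The median total level of the list was 16.2%. Of 78 cytosolic ribosomal protein genes 62 had a total under 10%, and the 16 others had a median of 0.918 with 1 low member. Of 18 glycolysis genes 9 were usable, with a median of 1.40 and 7 above the reference. Ldha, the lactate dehydrogenase, was the 1 high member (11.1%) with 23.5% (17.5 to 30.3%) at a total of 29.3%, and Aldoa, the aldolase, had a share of 6.36%. Of 11 usable genes of the Hist1 histone cluster, with a median of 1.22, Hist1h2bm was low (4.11%, 0.267 to 9.87%) and the low call of Hist1h4c was lost with the filters. The ratio of Hist1h2bm was 0.00747 with plus-strand cytosines alone and 0.799 with minus-strand ones. Cell adhesion and epithelial genes had 10 usable members with a median of 1.35, of which the desmosomal Pkp3 (20.7%, 16.9 to 24.8%, total 42.1%) and the tight junction gene Cldn7 (22.0%) were high (20% of the list, beside 7.57% of all promoters).

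The large receptor families had the smallest medians of the 21 lists, though not once CpG number was matched. Of 1081 olfactory receptor genes 958 were kept, all with usable totals, with a median ratio of 0.434, and 263 (27.5%, beside 10.6% of all promoters) were low and 19 (1.98%, beside 7.57%) high. Of 319 vomeronasal receptor genes, which detect pheromones, 219 were usable, with a median of 0.406, and 75 (34.2%) were low and 11 (5.02%) high, of which 5 were kept. Vmn2r112, Vmn2r63 and Vmn1r37 had 2 of 478, 2 of 462 and 4 of 459 CAPS reads modified. These promoters are CpG-poor, with medians of 18 and 15 CpGs and of 361.5 and 309 CAPS reads. Against promoters of like total level and like CpG number the medians were 0.681 and 0.819, nearer to 1, beside 0.668 for mitochondrial ribosomal genes. Many receptor genes have close copies, and whether reads were placed on the wrong copy was not tested. Some receptor genes had high shares, such as Olfr225 (6.23%, 4.57 to 8.21%), Olfr1359 (8.05%, 5.25 to 11.6%) and Olfr157 (5.29%, 3.69 to 7.27%), and these windows held 62, 43 and 59 CpGs. Their ratios were 2.45, 2.96 and 2.88 with plus-strand cytosines alone and 1.89, 1.29 and 1.09 with minus-strand ones.

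The remaining families of tissue-specific or diverse function had medians from 0.961 to 1.43. Of 96 usable keratin and keratin-associated genes, with a median of 0.961, 11 were low (11.5%, near the 10.6% of all promoters) and 4 high (4.17%, beside 7.57%), among them Krt80 (7.35%) and Krt79 (5.33%) on the high side and Krtap8-2 (-0.0295%) and Krtap16-4 (0.288%) on the low side. Cytochrome P450 genes, which oxidize drugs and steroids, had a median of 0.978 over 85 genes, with 7 high (8.24%) and 13 low (15.3%). Cyp2c69 (6.39%, 4.02 to 9.45%), Cyp2f2 (6.43%) and Cyp11a1 (6.70%), the side-chain cleavage enzyme of steroid synthesis, were high, and Cyp4f18 (0.225%), Cyp2d40 (-0.141%) and Cyp4f14 (1.68%) were low. Defensins had a median of 0.985, with 5 high (11.4%) and 2 low (4.55%) among 44 genes, but no high call and 1 low call were kept. Collagens had a median of 1.24 over 34 genes, with 4 high (11.8%) and 3 low (8.82%). The neighbouring genes Col6a1 (6.76% at a total of 71.04%) and Col6a2 (4.23% at 39.2%) were high and low, each against its own reference. Col1a2 (19.7%) and Col8a2 (19.2%) were high, and Col5a2 (3.69%) and Col23a1 (3.84%) were low. The ratio of Col23a1 was 0.737 with plus-strand cytosines alone and 0.0638 with minus-strand ones. Genes of the 2-cell stage had 6 usable members with a median of 1.43, and the high call of Tdpoz3 was lost with the filters.

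Zinc finger genes named Zfp had a median ratio of 0.904 over 250 genes, with 8 high (3.20%, beside 7.57% of all promoters) and 23 low (9.20%, beside 10.6%). Zfp57, which protects methylation at imprinted loci, was high with 22.8% (16.2 to 30.4%) at a total of 14.7%, and Zfp217 (6.60%) and Zfp647 (6.83%) were high at totals of 68.98% and 67.03%. Zfp11 was low with 13 of 1428 CAPS reads and 487 of 2650 TAPSβ reads modified, a share of 1.04% (-1.21 to 4.75%) at 18.3%. Zfp61 (3.28%, total 31.6%) and Zfp940 (3.45%, total 35.6%) were low as well. Zfp57 and Zfp11 had TAPSβ levels of 11.6% and 18.4% and CAPS levels of 4.08% and 0.910%. Clustered protocadherins, adhesion proteins of neurons, had 24 usable genes with a median of 0.706, of which 4 lay above the reference and 2 (8.33%, beside 10.6% of all promoters) were low, Pcdhb13 with a share of 4.42% and Pcdhb7 with 4.34%. Against promoters of like CpG number these medians were 0.914 and 0.694.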

How the data were processed

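Counts and levels of CpG cytosines in 1 TAPSβ, 1 CAPS and 1 PS library of E14 mESCs were used. Per the labels and the study's methods, the authors trimmed reads with Trim Galore 0.3.1, mapped them with BWA 0.7.12 to mm9, removed duplicates with Picard 2.3.0 and used asTair to call modified bases. They deposited, per cytosine, counts of modified and unmodified reads and the fraction of modified reads, without normalization. Whether artifact-prone regions and E14 variants had been left out of the deposited values is not given in the sources used here.

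Counts were pooled per gene over both strands, from 2 kb before to 2 kb after the start in GENCODE M1, for genes of the 19 autosomes with 200 or more reads in each library. Background rates of 0.0072 (CAPS) and 0.0024 (TAPSβ), which are the study's, were subtracted. Bounds of a share combine the exact (Clopper-Pearson) 95% limits of both libraries. A floor for a count of 0 is 3 counts. High and low calls and the reference are defined in the text. Windows of 82.2% of kept genes overlap no other kept window. The median depth per listed cytosine was 13 (TAPSβ), 10 (CAPS) and 10 (PS) reads. Named are the 15 high and 15 low genes with bounds furthest from the reference among calls kept with both filters and on the same side of 1 on each strand, up to 3 called members of each list in each direction, and usable genes of the pluripotency and DNA modification lists. Other genes were named after their values were seen. An item that the rule names is not reported here. The members and lists were chosen with earlier results of these data known. The effect of 15 alternative settings is given in the closing section, with that of 1 more, the reference of like CpG number, chosen after seeing the data. Computations ran in Python 3.11.15 with scipy 1.17.1, pandas 2.3.3, numpy 2.4.6 and matplotlib 3.10.9.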

Additional observations from a re-analysis of the deposited data

Results flagged for a closer look

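Of the promoters called high, 122 (11.0%) had a PS level of 2% or more, beside 1 of those called low (0.0640%), 77 of the 12028 others (0.640%) and 200 of all 14703 usable promoters (1.36%). PS reads were not used in the share, but bases read as T in PS are also read as T in CAPS and TAPSβ. The PS level and the share are therefore not independent. Of the 122, 19 stayed high without the cytosines that reached 20% in PS and without those of excess depth.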

How the results depend on the processing

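The count of 1113 high promoters became 583 with a minimum of 500 reads, 546 with no background subtracted, 687 with windows of 1 kb on either side and 2755 at a fold of 1.5. The count of 1562 low promoters became 970 with no background subtracted, 963 on the plus strand, 996 on the minus strand and 802 with 1-kb windows. The median share of 6.64% moved to 7.68% with 500 reads, 9.59% with no background, 8.02% with a CAPS background of 0.0038, 7.86% with levels corrected for conversion, 6.21% with cytosines averaged, 7.15% and 7.20% on the plus and minus strands, 7.54% and 4.79% with a total of at least 5% and 20%, and 6.34% in windows that overlap no other. List medians moved with 1-kb windows in germline (1.06), lineage (1.12), Hox (1.03), protocadherin (0.488) and defensin genes (0.669). They moved with 500 reads in olfactory (0.593), vomeronasal (0.652) and defensin genes (0.695), with no background in olfactory (0.576) and vomeronasal genes (0.556), and with the CAPS background of 0.0038 (0.514) and on the minus strand (0.500) in olfactory genes. Defensins moved to 0.759 and 0.751 on the plus and minus strands. Olfactory and vomeronasal genes moved to 0.681 and 0.819 with the reference of like CpG number, chosen after seeing the data. The ratio of Esrrb fell to the other side of 1 on the minus strand (0.962). For the counts, medians and lists, 326 other values stayed within their limits, and for single genes 1296 did and 86 moved on the same side of 1. The cause of these moves was not tested. No paired analysis was possible because each method had 1 library. With no replicate, the intervals of counts and of medians over genes leave out differences between cultures, conversions and libraries.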

Other observations

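Families formed after the values had been seen, from gene symbols with the same letters before the first digit and at least 15 usable members (83 families), add groups not in the lists. Their calls are the kept ones, which were 6.68% high and 9.98% low over all genes. Prolactin family genes (Prl), hormones of placenta and pituitary, had the smallest median ratio, 0.180 over 23 genes, with 8 low and 0 high, and a median of 16 CpGs. Taste receptors (Tas) had 0.491 over 32 genes with 7 low, and carboxylesterases (Ces) 0.682 over 20 genes with 5 low. Their medians were 19.5 and 25 CpGs. Between these 2 families lay, among others, Lce (0.541, 0 low), Fbxw (0.564, 3 low) and Ccl (0.575, 2 low). No reference of like CpG number was computed for the families.

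Some families of low total level lay below 1. Subunits of the Mediator complex (Med) had a median of 0.636 over 17 genes, with 7 low and 0 high, and RNA polymerase subunits (Polr) 0.738 over 15 genes with 4 low. On the other side, aldehyde dehydrogenases (Aldh) had 1.502 over 16 genes, receptors of the tumour necrosis factor family (Tnfrsf) 1.47 over 19 genes and Ly antigens 1.39 over 19 genes, with 2, 3 and 5 high. Genes named Bcl had 1.32 over 15 genes, of which 6 (40%) were high, and claudins (Cldn) 1.23 over 24 genes with 5 high. Between Bcl and Cldn lay, among others, Arhgap (1.30, 2 of 20 high), Pde (1.29, 1 of 20 high) and Cdh (1.27, 0 of 17 high). A family that was chosen after its values were seen has no test, and its genes often lie in clusters that share methylation.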
